A study of Mus musculus with 12 samples.

Results

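The 10 genes described here encode macrophage receptors that take up modified lipoproteins, microbes and cell debris or that recognise apoptotic cells: Msr1, Marco, Mrc1, Scarb1, Stab1, Mertk, Axl, Cd300lf, Trem2 and Olr1. They were chosen by name from 47937 genes in the count table, by what they encode and with earlier results of these data known, and all 10 passed the filter on low counts that left 11760 genes for testing. Marco and Olr1 passed it through the libraries with IFNγ + LPS and had almost no reads without it.

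RNA was sequenced from bone marrow-derived macrophages of C57BL/6 mice, which the study's methods give as 6 to 8 weeks old, grown from bone marrow for 7 days in 20 ng/ml CSF-1, the growth factor that drives macrophage differentiation. The 4 groups held 3 libraries each: resting macrophages without any addition (M0), resting macrophages given 50 µM T863 for 18 h (M0 + DGAT1i), macrophages stimulated for 18 h with 50 ng/ml IFNγ and 20 ng/ml LPS (IFNγ + LPS), and stimulated macrophages that also received 50 µM T863 (IFNγ + LPS + DGAT1i). T863 is an inhibitor of DGAT1, an enzyme that makes the last step of triglyceride synthesis. The labels of 2 of the 3 libraries of resting macrophages with the inhibitor carry another compound number in one field, T864 and T865, and T863 in another, and they were read as T863. No separate vehicle group was named. The labels give no harvest time for M0, and in the study's methods these cells stayed unstimulated while the others were treated for 18 h. The labels do not say whether the 3 libraries of a group came from separate mice or cultures, so the p-values measure the spread between these libraries, which may be technical.

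Libraries held 4996014 to 6621671 reads, with a median of 6099313.5, and 1 CPM (reads per gene scaled to the size of the library by TMM) corresponds to 4.28 to 7.58 reads. Replicate libraries differed beyond counting noise in every one of the 12 pairs, with a chi-square per gene of 1.98 to 4.23. The 8 macrophage markers, among them Adgre1, Csf1r and Lyz2, were all present in every group, with a summed level of 13220 to 14450 CPM in M0, 16140 to 18140 in M0 + DGAT1i, 7971 to 8542 in IFNγ + LPS and 7519 to 8454 in IFNγ + LPS + DGAT1i. The sum fell with IFNγ + LPS through Lyz2, the lysozyme gene, at 9007 to 10250 CPM in M0 and 2734 to 3086 in IFNγ + LPS. The sum of the other 7 markers rose from 4179 to 4211 CPM in M0 to 5237 to 5456 CPM in IFNγ + LPS, with Adgre1 and Fcgr1 higher and the other 5 lower. Because RNA was measured in bulk, fewer cells with a transcript and less transcript per cell cannot be told apart.

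Scavenger receptors are a mixed group of surface proteins that bind polyanionic ligands such as oxidised lipoproteins and bacterial products and carry them into the cell. Apoptotic cells expose phosphatidylserine, which the receptor tyrosine kinases MERTK and AXL sense through the bridging proteins GAS6 and protein S, and which CD300LF and TREM2 can bind directly along with other lipids. In macrophages these receptors link clearance of dead cells and lipid uptake to signals that temper or shape the inflammatory response.

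Promoter windows from 250 bases before to 50 bases after the transcription start were found for 8 of the 10 genes in the RefSeq-derived table on GRCm38.p6, and no window was found for Msr1 and Scarb1. Those of Mertk and Cd300lf, whose transcripts rose with IFNγ + LPS, and of Mrc1 and Trem2, whose transcripts fell, are shown for comparison. Capitals mark GAGGAA (the core bound by PU.1 and other ETS factors), GGGCGG (the GC box) and TGANTCA (AP-1), read on either strand. The window of Mertk is chr2:128698665-128698964 (plus strand), that of Cd300lf is chr11:115133943-115134242 (minus strand), that of Mrc1 is chr2:14229164-14229463 (plus strand) and that of Trem2 is chr17:48346151-48346450 (plus strand), each written 5′ to 3′ along the gene.
Mertk: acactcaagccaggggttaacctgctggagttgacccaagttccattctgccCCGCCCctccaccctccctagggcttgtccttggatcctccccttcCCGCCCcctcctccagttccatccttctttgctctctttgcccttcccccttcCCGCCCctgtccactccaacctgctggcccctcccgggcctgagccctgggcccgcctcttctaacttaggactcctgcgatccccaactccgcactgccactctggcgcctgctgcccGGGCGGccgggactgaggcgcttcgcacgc
Cd300lf: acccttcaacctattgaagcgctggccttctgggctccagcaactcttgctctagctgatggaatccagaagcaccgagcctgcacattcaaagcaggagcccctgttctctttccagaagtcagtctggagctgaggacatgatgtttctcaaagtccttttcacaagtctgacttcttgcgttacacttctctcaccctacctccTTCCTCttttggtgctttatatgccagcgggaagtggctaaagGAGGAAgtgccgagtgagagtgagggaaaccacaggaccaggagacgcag
Mrc1: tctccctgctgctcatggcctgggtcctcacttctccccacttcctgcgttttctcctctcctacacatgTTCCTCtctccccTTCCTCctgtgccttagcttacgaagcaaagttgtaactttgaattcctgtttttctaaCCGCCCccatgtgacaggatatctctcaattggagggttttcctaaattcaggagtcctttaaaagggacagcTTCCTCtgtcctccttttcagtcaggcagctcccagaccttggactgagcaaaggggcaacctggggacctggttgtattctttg
Trem2: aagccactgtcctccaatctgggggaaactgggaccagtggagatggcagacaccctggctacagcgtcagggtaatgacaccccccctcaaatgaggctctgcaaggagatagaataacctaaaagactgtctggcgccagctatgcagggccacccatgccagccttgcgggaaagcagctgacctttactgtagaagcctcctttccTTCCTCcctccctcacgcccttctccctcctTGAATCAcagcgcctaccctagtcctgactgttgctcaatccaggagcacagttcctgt

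In these letters GAGGAA was present in 7 of the 8 windows, all but that of Mertk, against 28.3% of 32851 promoter windows of the same length, and it was found on both sides of the response: in Marco, Axl, Cd300lf and Olr1, which rose, and in Mrc1, Stab1 and Trem2, which fell. The GC box GGGCGG was found in 3 windows, with 4 matches in Mertk, 2 in Axl and 1 in Mrc1, against 35.7% of all windows. TGANTCA was found in Olr1 and Trem2, against 7.81% of all windows. Motifs with a match in other letters were TATAAA (the TATA box, in Cd300lf, 13.6% of all windows), TGCTGA (a MAF half-site, in Stab1, 19.5%), TTGCNNAA (C/EBP, in Trem2, 10.8%) and CCAAT (in Mrc1, Olr1, Stab1 and Trem2, 37.4%). No match was found for TTCNNNGAA (GAS, 8.3% of all windows), the core of the ISRE (3.44%), the NF-kB site (0.411%), TGACGTCA (CRE, 1.79%), CACGTG (the E-box, 7.15%), the DR4 repeat of liver X receptors (0.0152%) or the ETS-IRF composite site (2.72%). All 14 motifs were searched on both strands, some can overlap one another, as GAGGAA does with the composite, and a match or its absence describes only the letters of this window.

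With IFNγ + LPS, the receptor transcripts of these macrophages moved in both directions. Transcripts of Marco, Cd300lf, Olr1, Mertk, Axl and Msr1 rose and those of Mrc1, Trem2, Stab1 and Scarb1 fell. Marco and Olr1, which passed the filter only through the stimulated libraries and so had to be higher there, are left out of the count. The other 8 receptor genes all passed the test (edgeR's quasi-likelihood test, adjusted p under 0.05), 4 higher and 4 lower, where 73.3% of all 11760 genes tested passed it, 37.1% higher and 36.2% lower. The median log2 fold change of these 8 genes was -0.50 and that of all genes 0.0064, and the median size of the log2 change, regardless of sign, was 2.57 against 0.59.

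Mrc1, the mannose receptor, an endocytic receptor of resting and alternatively activated macrophages (chr2:14229392-14332057, plus strand), lost nearly all of its transcript with stimulation. It was at 1388, 1691 and 1419 CPM in M0 and at 35.2, 40.1 and 37.8 CPM in IFNγ + LPS. Every stimulated library was far below every resting one. The log2 fold change was -5.31 (SE 0.10), which is 39.6-fold lower (adjusted p = 6.78e-19).

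Stab1, or stabilin-1, which clears modified low-density lipoprotein and other debris (chr14:31139013-31168641, minus strand), had 2430, 2567 and 2407 CPM in M0 and 446.4, 431 and 479.9 CPM in IFNγ + LPS. The groups lay far apart, with a log2 fold change of -2.45 (SE 0.05, adjusted p = 3.07e-42). Of its 10288 exon bases, 112 overlap exons of Nt5dc2 on the opposite strand, and whether the counting used the strand is not given in the sources used here. Trem2, which binds lipids and apoptotic cells and signals through the adaptor DAP12 (chr17:48346401-48354147, plus strand), went from 815.2, 769.1 and 817.9 CPM to 119.4, 123.3 and 124.2 CPM. Its log2 fold change was -2.71 (SE 0.06, adjusted p = 7.49e-44).

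Scarb1, the high-density lipoprotein receptor that exchanges cholesterol with its ligand (chr5:125277087-125341094, minus strand), was the lowest of the 4 transcripts that fell. It went from 70.6, 78.8 and 74.2 CPM in M0 to 22.3, 19.3 and 23.6 CPM, a log2 fold change of -1.78 (SE 0.09, adjusted p = 8.17e-25).

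Mertk, the main receptor kinase for uptake of apoptotic cells by macrophages (chr2:128698956-128802894, plus strand), rose from 78.5, 65.4 and 70.3 CPM in M0 to 487.4, 479.8 and 409.3 CPM in IFNγ + LPS. Every stimulated library was far above every resting one, and the log2 fold change was 2.69 (SE 0.07, adjusted p = 3.13e-27). Axl, its relative that is linked to inflammation and interferon responses (chr7:25757273-25788705, minus strand), rose from 45.5, 37.3 and 44.3 CPM to 157.9, 151 and 151.4 CPM. Its log2 fold change was 1.86 (SE 0.08, adjusted p = 2.93e-27). The third member of this kinase family, Tyro3, did not pass the filter on low counts. The level of Mertk per length was 1.96 ± 0.10 times that of Axl in M0 and 3.47 ± 0.29 times in IFNγ + LPS (SD, n = 3).

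Cd300lf, an immunoreceptor for phosphatidylserine and ceramide with inhibitory motifs in its tail (chr11:115116214-115133992, minus strand), was low in M0, at 7.85, 4.53 and 6.13 CPM, and reached 90.3, 103.9 and 103.8 CPM in IFNγ + LPS. This was a log2 fold change of 4.02 (SE 0.11), or 16.2-fold (adjusted p = 1.96e-36). Msr1, the class A scavenger receptor of acetylated and oxidised low-density lipoprotein (chr8:39581685-39642673, minus strand), was already well expressed in M0, at 337.4, 359.3 and 374.7 CPM, and reached 614.8, 624.5 and 591.8 CPM. Its log2 fold change of 0.77 (SE 0.05, adjusted p = 2.06e-19) was the smallest in size of the 10, and 0.30 where libraries were scaled by their totals alone (adjusted p = 8.22e-07, the highest over its alternatives, with 4.59e-40 as the lowest).

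Marco, the second class A scavenger receptor, which binds bacteria and particles (chr1:120474538-120505024, minus strand), was nearly absent without stimulation. M0 held 0, 0 and 1 reads and IFNγ + LPS 676, 436 and 891 reads, which is 142.3, 78.5 and 166.9 CPM. The summed level was 2763 times higher with stimulation, with an exact 95% counting interval of 495.2 to 109200 that covers counting error only. The stimulated libraries also differed among themselves, with a mean of 129.2 ± 45.6 CPM (SD, n = 3). Olr1, the lectin-like receptor of oxidised low-density lipoprotein (chr6:129485244-129507165, minus strand), was the least abundant receptor with stimulation. It had 2, 2 and 0 reads in M0 and 10, 11 and 9 reads in IFNγ + LPS, a ratio of levels of 10.3 with a counting interval of 3.65 to 40.4.

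**Figure D1:**
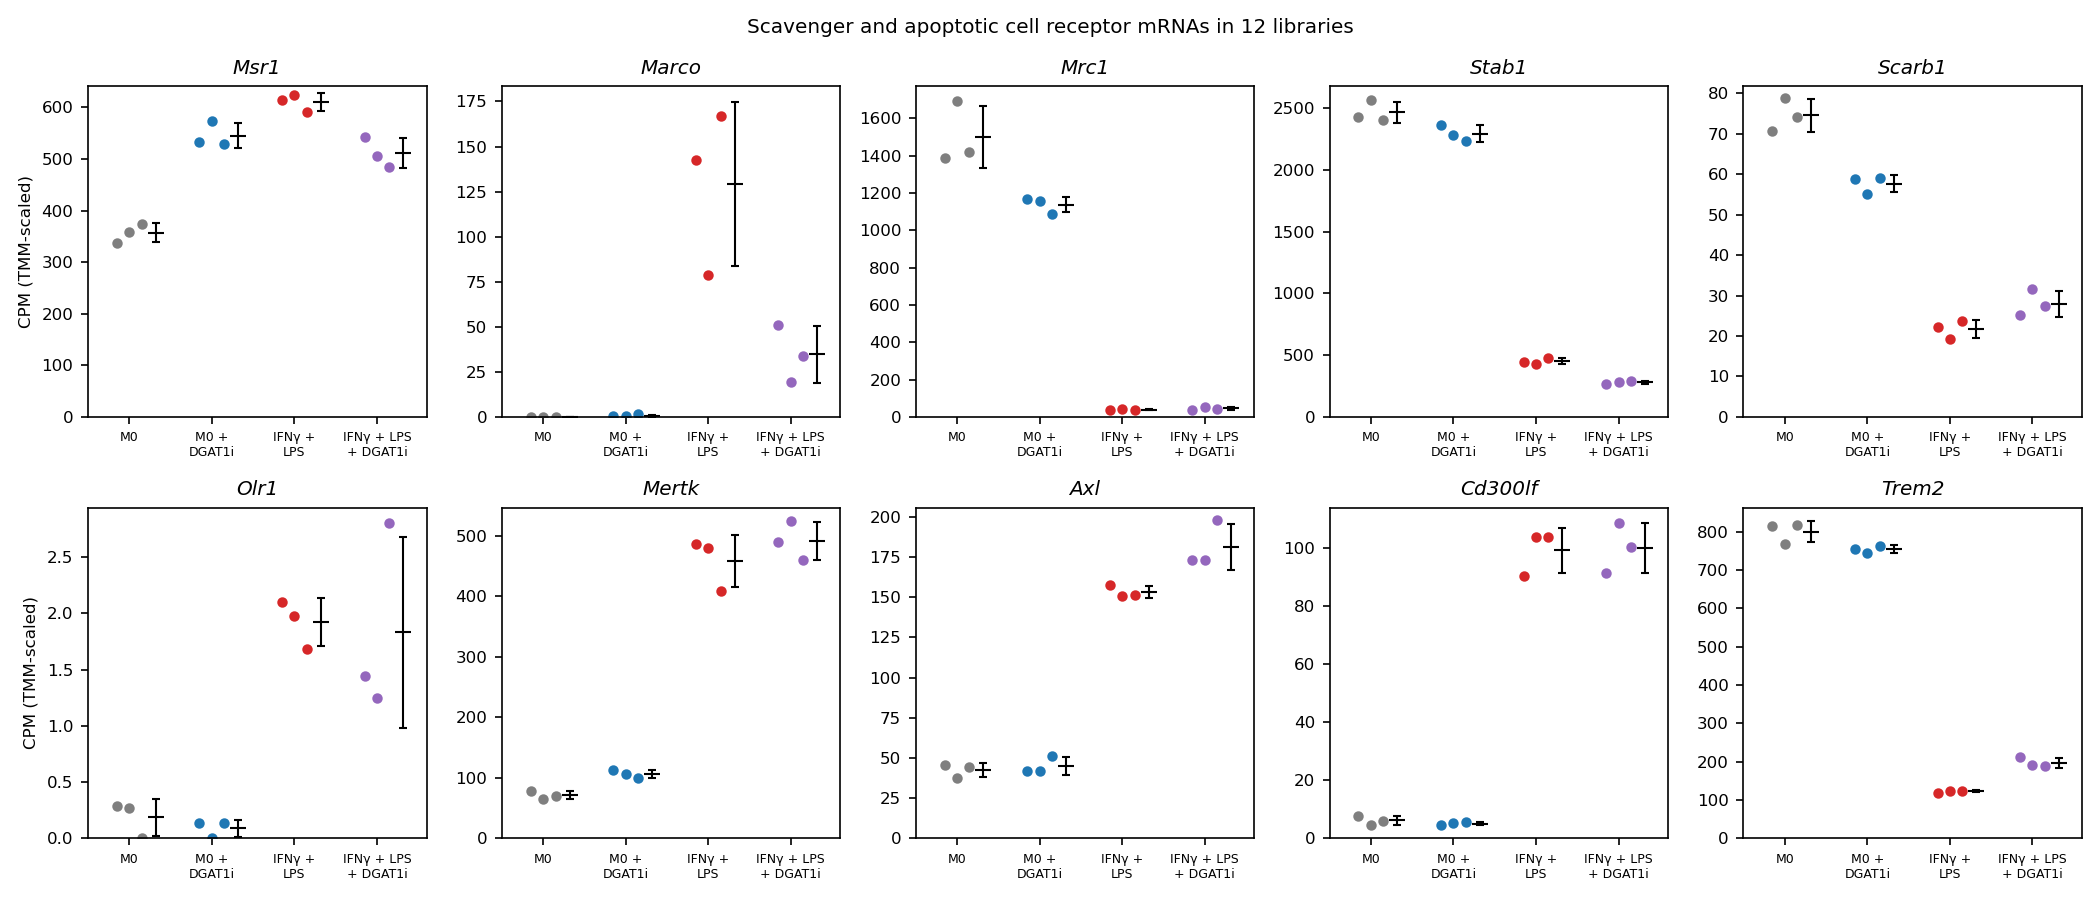
CPM (TMM-scaled, linear axes from 0, 1 panel per gene) of the 10 receptor transcripts in each library, with the mean and SD of 3 libraries beside the points. Mrc1, Stab1, Scarb1 and Trem2 are lower and the other 6 receptors higher in both groups with IFNγ + LPS than in M0, and Trem2 is at 122.3 CPM with IFNγ + LPS and at 196.7 CPM when DGAT1i is added.

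The levels per kb of exon give an order of the receptors within a group that depends on the exon length used. This length covers all annotated exons of a gene and can exceed that of a transcript. It was 6344 bases for Msr1, 8500 for Scarb1 and 4336 for Mertk, against 3636, 3093 and 4302 in their longest transcripts. The order by transcript length was not computed, and that of Mertk and Msr1 may differ with it. In M0, Stab1 (239.9 ± 8.4 CPM per kb, SD, n = 3) and Mrc1 (235.3 ± 26.2) led and exchanged ranks between libraries, followed by Trem2 (161.9 ± 5.5) and Msr1 (56.3 ± 3.0). In IFNγ + LPS, Mertk (105.8 ± 9.9) and Msr1 (96.2 ± 2.7) led, and Marco (67.1 ± 23.7) and Stab1 (44.0 ± 2.4) exchanged the next ranks between libraries. Mertk took 2.27% of the receptor sum in M0 and 26.7% in IFNγ + LPS, while Trem2 took 22.3% and 6.24%. The sum itself was 728.3 ± 27.4 CPM per kb in M0 and 396.7 ± 17.97 in IFNγ + LPS. Msr1 was at 0.23 ± 0.02 of the level of Stab1 per length in M0 and at 2.19 ± 0.18 times that level in IFNγ + LPS.

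**Figure D2:**
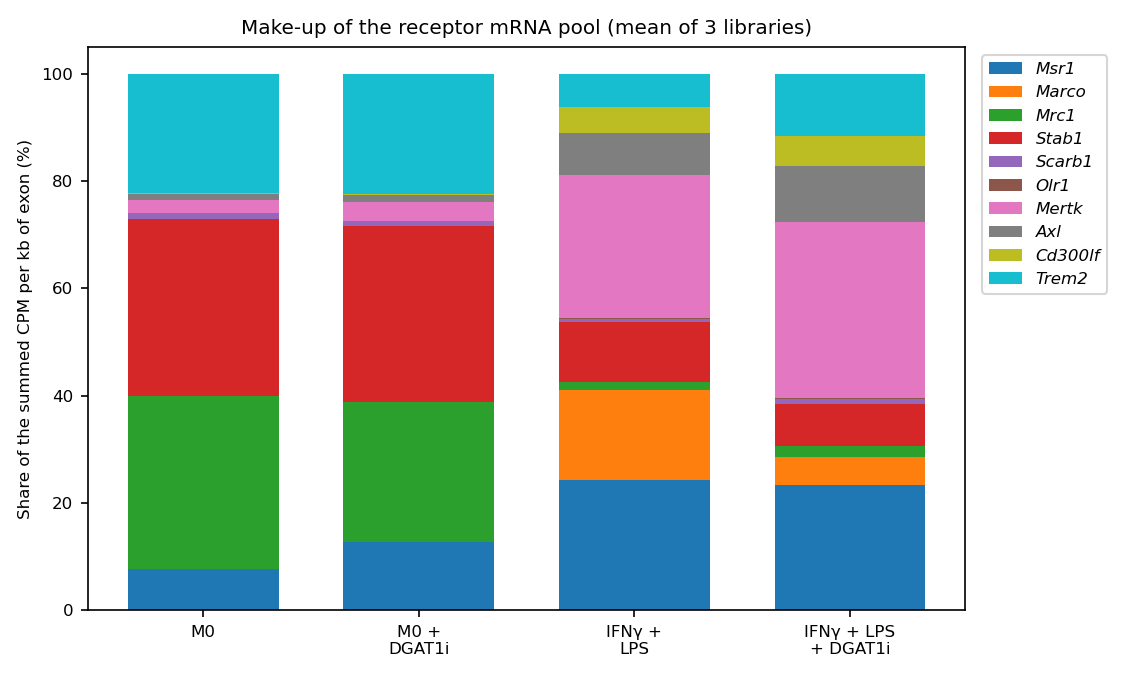
Share of each receptor in the summed CPM per kb of exon of the 10 receptors (stacked bars, %, mean of 3 libraries per group). Mrc1, Stab1 and Trem2 fill most of the bar in both resting groups. By these exon lengths Mertk, with 26.7% in IFNγ + LPS and 32.9% when DGAT1i is added, is the largest share in both stimulated groups. The shares depend on the length used, which for Msr1 is 6344 bases against 3636 in its longest transcript.

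The partners of these receptors were counted in the same comparison, by the lists written for this description. Beside the counts of these lists, here and in the next paragraphs, stand the 73.3% of all genes tested that passed the test. Of all genes, 37.1% were higher and 36.2% lower. List genes that passed the filter on low counts only through the stimulated libraries, or only through the resting ones, had to differ and are left out of the counts and medians. Of 14 bridging molecules and opsonins, which tag dead cells for uptake, 13 were tested, 2 rose and 9 fell, with a median log2 fold change of -0.54. Gas6, the ligand of AXL and MERTK, was at 573.6, 579.7 and 558.8 CPM in M0 and at 19.6, 28.1 and 27.7 CPM in IFNγ + LPS, the reverse of its receptors, with a log2 fold change of -4.49 (SE 0.08, adjusted p = 1.93e-42). Pros1, which encodes protein S, the other ligand, fell by 1.54 on the log2 scale (SE 0.10, adjusted p = 2.84e-19). The level of Mertk per length was 0.074 ± 0.007 times that of Gas6 in M0 and 11.1 ± 3.1 times in IFNγ + LPS. The 2 that rose were the complement component C3 (log2 fold change 9.76, SE 0.09) and the matricellular protein Thbs1 (4.59, SE 0.18), a bridge to CD36 and integrins. Of the genes of C1q, which coats apoptotic cells, C1qa and C1qc fell (-0.54 and -0.25) and C1qb was at -0.0095 (adjusted p = 0.879), but at -0.48 with scaling by library totals alone (adjusted p = 2.56e-11, the lowest over its alternatives, against 0.958 as the highest).

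Of 15 genes of TREM and CD300 signalling, 13 were tested, and of the 11 without Treml2 and Ms4a4a, which passed the filter through the stimulated libraries, 6 rose and 3 fell (median log2 fold change 0.21), but with scaling by library totals alone 4 were higher and 6 lower. Tyrobp, which encodes DAP12, the adaptor that TREM2 needs, fell by 0.58 on the log2 scale (SE 0.06, adjusted p = 3.65e-11), from 696.6 ± 34.7 to 464.9 ± 17.6 CPM, and Trem2 per length was at 0.155 ± 0.003 of the level of Tyrobp in M0 and at 0.036 ± 0.002 in IFNγ + LPS. Syk, the kinase that DAP12 recruits, rose by 1.36 (SE 0.05), and Ptpn6, the phosphatase SHP-1 that binds inhibitory tails such as that of CD300LF, rose by 1.30 (SE 0.05). Treml2, a relative of Trem2, had 12 reads in M0 and 228 in IFNγ + LPS, a ratio of levels of 26.2 with a counting interval of 14.7 to 51.5. Apoe, a lipid carrier that TREM2 binds, fell by 0.51 (SE 0.06).

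Of 16 other apoptotic cell receptors, 12 were tested, and of the 11 without Treml4, 1 rose and 8 fell (median -0.99). The relatives of Cd300lf went the other way from Cd300lf itself: Cd300lb fell by 2.25 (SE 0.07), Cd300ld by 1.62 (SE 0.06) and Cd300a by 0.59 (SE 0.06) on the log2 scale. The integrin subunit Itgb5, which pairs with αv in the uptake of apoptotic cells, had the largest decrease (-3.11, SE 0.07). Treml4, which passed the filter through the stimulated libraries, had 9 reads in M0 and 63 in IFNγ + LPS, a ratio of 9.65 (counting interval 4.78 to 22.1). Of 20 other scavenger receptors, 15 were tested, and of the 12 without Cd163, Stab2 and Ssc5d, which passed the filter through 1 side, 4 rose and 6 fell (median -0.41), against 3 and 7 with scaling by library totals alone. Cxcl16, which is both a chemokine and a receptor of oxidised lipoprotein, rose by 4.09 (SE 0.07). Cd36, the fatty acid and oxidised lipoprotein receptor, fell by 1.23 (SE 0.07), and Lrp1 by 1.99 (SE 0.08). Cd163, the haemoglobin scavenger receptor, had 82 reads in M0 and 1 read in IFNγ + LPS, a ratio of 59.5 with a counting interval of 10.4 to 2377, and Stab2, the relative of Stab1, had 93 and 4 reads, a ratio of 16.9 (6.37 to 63.2).

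Of 20 genes of the engulfment machinery, which moves the membrane and digests the cargo, 19 were tested, and of the 18 without Bcar1, 10 rose and 6 fell (median 0.14), with Dock1 at -2.51 (SE 0.09) as the largest decrease. With scaling by library totals alone these 18 had 6 higher and 10 lower. Bcar1 had 3 reads in M0 and 31 in IFNγ + LPS, a ratio of 14.2 (counting interval 4.45 to 72.8). Of 11 brakes and sheddases 9 were tested, and the 6 without Socs1, Socs3 and Siglece, which passed the filter through the stimulated libraries, all passed the test, 4 higher and 2 lower (median 0.47), against 2 and 2 with scaling by library totals alone. Socs1 had 12 reads in M0 and 6795 in IFNγ + LPS, a ratio of 781 (446.8 to 1512). Cd47, the signal that protects cells from uptake, was at 2.04 (SE 0.06), and its receptor Sirpa at -1.06 (SE 0.05). Adam17, a protease that sheds MERTK, was at 0.36 (SE 0.05, adjusted p = 2.17e-08), and at -0.11 with scaling by library totals alone. Adam10, the other metalloprotease of the list that sheds such receptors, fell by 0.66 (SE 0.06, adjusted p = 2.17e-14). Of 14 nuclear receptors and MAF factors, which control receptor genes of this kind in macrophages, 13 were tested, and of the 12 without Nr4a1, 6 rose and 6 fell (median 0.05), against 4 and 6 with scaling by library totals alone, among them Nr1h3, the liver X receptor α, at 2.79 (SE 0.14), Maf at -0.87 (SE 0.06) and Pparg at -2.20 (SE 0.13). Nr4a1, which passed the filter through the resting libraries, had 112 reads in M0 and 7 in IFNγ + LPS, a ratio of 11.6 (counting interval 5.45 to 29.5). Of 8 genes known as liver X receptor targets, 3 rose and 4 fell (median -0.28), against 2 and 5 with scaling by library totals alone, with Abcg1 at 1.84 (SE 0.06) and Abca1 at -0.77 (SE 0.06).

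**Figure D3:**
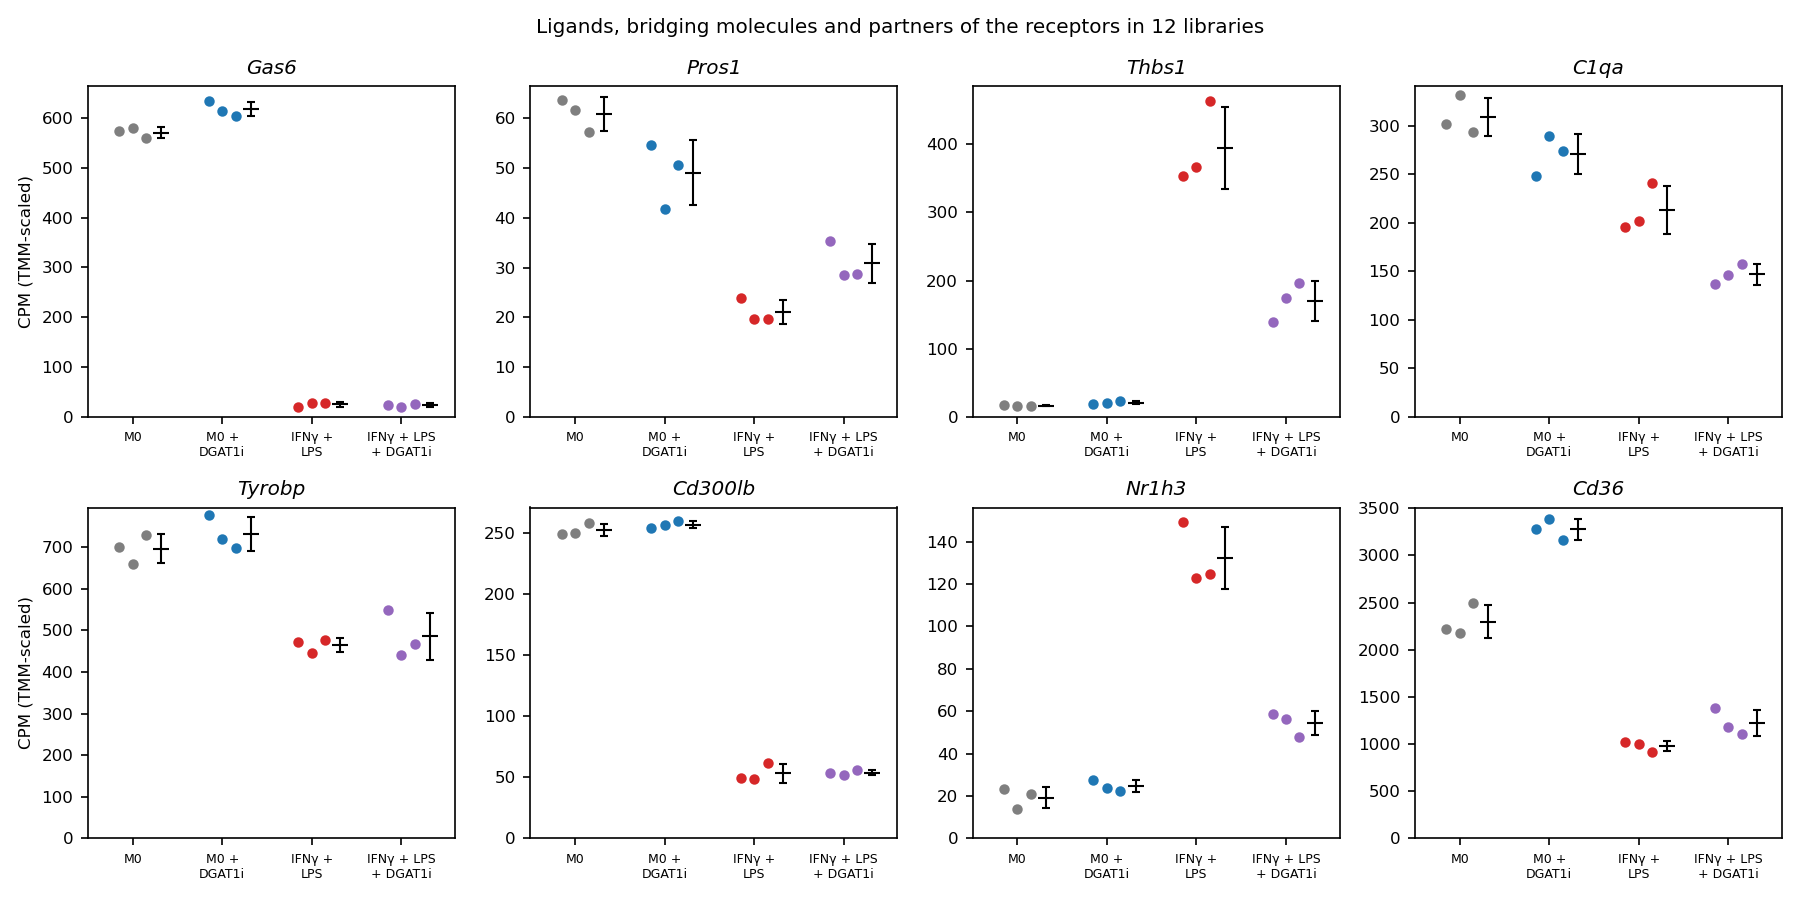
CPM (TMM-scaled, linear axes from 0) of 8 ligands, adaptors, relatives and regulators of the receptors in each library, with the mean and SD of 3 libraries beside the points. Gas6 is at 570.7 CPM in M0 and 25.1 CPM in IFNγ + LPS, and Thbs1 and Nr1h3 are high with IFNγ + LPS and lower when DGAT1i is added.

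Apart from Marco and Olr1, the 4 receptors that rose and the 4 that fell kept their direction and stayed past the threshold under every alternative in which they were tested, but scaling by library totals alone shifted the middle of the log2 fold changes over all genes to -0.46, and the split of all genes called from 4361 higher and 4254 lower to 2340 higher and 7002 lower. Markers of other cells moved with stimulation as well: the summed level of 7 dendritic cell markers was 0.27 to 0.84 CPM in M0 and 12.4 to 17.5 CPM in IFNγ + LPS, through Clec9a and Xcr1 and with Cd209a and Siglech at 0 in the latter, and that of 10 neutrophil markers was 37.2 to 45.4 and 16.8 to 27.4 CPM. The 6 T cell markers went from 24.9 to 34.95 CPM in M0 to 4.0 to 6.3 CPM, with Cd28 lower, Lck higher and Cd3g and Cd3e at 0 in both. The 6 endothelial cell markers went from 5.06 to 8.08 CPM to 13.5 to 17.6 CPM, with Kdr higher, Stab2 lower and Tek and Emcn at 0 in both. The 6 B cell markers went from 2.03 to 2.66 CPM to 0.21 to 0.75 CPM, with Cd79b lower and Ebf1 at 0 in both. The part of these markers in the results was not tested.

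Addition of DGAT1i to IFNγ + LPS changed 6 of the 9 receptor transcripts other than Olr1, 3 higher and 3 lower. Of all genes tested, 29.8% changed, 13.5% higher and 16.3% lower. Olr1 is left out of the count because it would not have passed the filter without the libraries of IFNγ + LPS. Trem2, Scarb1 and Axl rose, and Marco, Stab1 and Msr1 fell. Mertk, Mrc1 and Cd300lf did not pass the test, and neither did Olr1. The median log2 fold change was 0.10 over the 9 receptors and -0.01 over all genes, and the median size of the change 0.26 against 0.21.

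Trem2 had 119.4, 123.3 and 124.2 CPM in IFNγ + LPS and 211.2, 191.3 and 187.5 CPM in IFNγ + LPS + DGAT1i. All 3 libraries with the inhibitor were above all 3 without it, at a log2 fold change of 0.69 (SE 0.06), or 1.61-fold (adjusted p = 4.08e-14). The level stayed far below that of M0, 800.7 ± 27.4 CPM (SD, n = 3). Tyrobp did not pass the test here (log2 fold change 0.06, SE 0.06, adjusted p = 0.478), and Trem2 per length went from 0.036 ± 0.002 to 0.055 ± 0.003 of the level of Tyrobp. Scarb1 had 22.3, 19.3 and 23.6 CPM without and 25.1, 31.5 and 27.3 CPM with the inhibitor, a log2 fold change of 0.37 (SE 0.11, adjusted p = 0.0108). Without replicate 2 of IFNγ + LPS, or without replicate 2 of IFNγ + LPS + DGAT1i, Scarb1 did not pass the test (log2 fold changes 0.28 and 0.27, adjusted p = 0.0999 and 0.128, against a range of 0.0051 to 0.128 over its alternatives).

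Axl rose from 157.9, 151 and 151.4 CPM to 173.1, 172.9 and 197.8 CPM. The groups did not overlap, but the difference was small, with a log2 fold change of 0.24 (SE 0.07, adjusted p = 0.00496), and without replicate 3 of IFNγ + LPS + DGAT1i it was 0.17 (adjusted p = 0.0809, against 0.00127 to 0.0809 over its alternatives). Mertk was at 487.4, 479.8 and 409.3 CPM without and 490.7, 524 and 460.2 CPM with the inhibitor, so that the groups overlapped. Its log2 fold change was 0.10, with a 95% interval of -0.03 to 0.23 (adjusted p = 0.247).

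Marco fell from 142.3, 78.5 and 166.9 CPM to 50.8, 19.2 and 33.9 CPM with the inhibitor. The lowest library without it lay above the highest library with it, and the log2 fold change was -1.89 (SE 0.36), or 3.71-fold lower (adjusted p = 0.00439). A fit to only the 6 libraries of this comparison gave -1.87 with an adjusted p of 0.0548, the highest over its alternatives, against a lowest of 7.33e-14. Stab1 fell from 446.4, 431 and 479.9 CPM to 267, 281.2 and 290.9 CPM, a log2 fold change of -0.69 (SE 0.06, adjusted p = 3.32e-15). Msr1 fell from 614.8, 624.5 and 591.8 CPM to 543, 505.2 and 485.2 CPM, with a log2 fold change of -0.26 (SE 0.05, adjusted p = 0.000134).

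Mrc1, which had fallen to a trace of its resting level, was at 35.2, 40.1 and 37.8 CPM without and 38.9, 54 and 41.1 CPM with the inhibitor. The ranges overlapped, and the log2 fold change was 0.24, with a 95% interval of -0.02 to 0.51 (adjusted p = 0.169, and 0.0297 to 0.677 over its alternatives). Cd300lf was at 90.3, 103.9 and 103.8 CPM and at 91.4, 108.7 and 100.6 CPM, with a log2 fold change of 0.01 and an interval of -0.15 to 0.17 (adjusted p = 0.943). Olr1 had 10, 11 and 9 reads and 7, 6 and 12 reads, with a log2 fold change of -0.09 and an interval of -0.97 to 0.78, and no difference was detectable at this depth.

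By the same exon lengths, Mertk (113.4 ± 7.4 CPM per kb, SD, n = 3) and Msr1 (80.6 ± 4.6) stayed first and second with the inhibitor. Trem2 (39.8 ± 2.6) and Axl (36.0 ± 2.8) came next and exchanged ranks between libraries, while Marco went from 16.8 ± 5.4% to 5.19 ± 2.27% of the receptor sum and Trem2 from 6.24 ± 0.36% to 11.5 ± 0.4%. The sum over the 10 receptors was 396.7 ± 17.97 CPM per kb without and 345.2 ± 9.9 with the inhibitor.

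**Figure D4:**
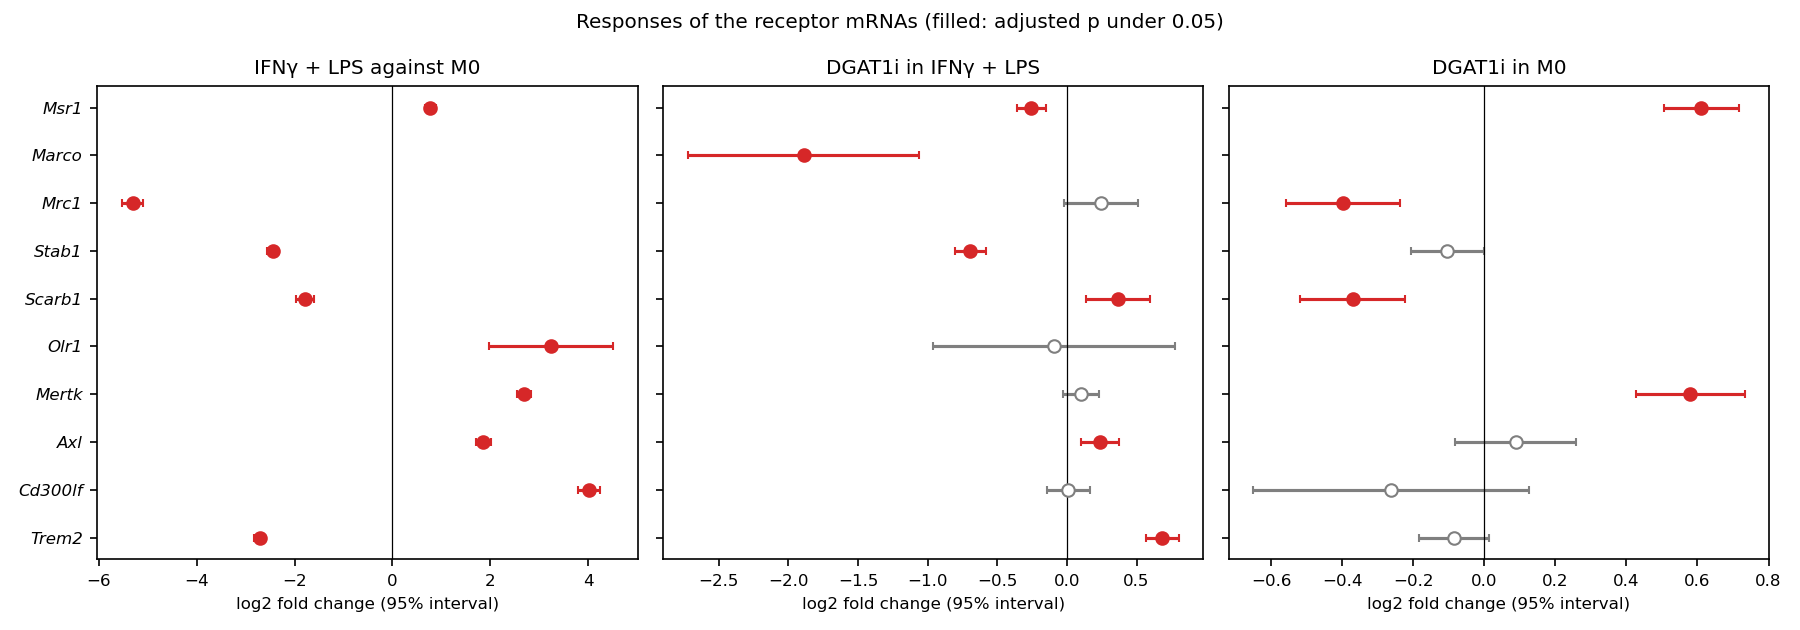
Log2 fold changes (points) with 95% intervals (bars) of the receptor transcripts for 3 comparisons, with separate linear axes and filled points where the adjusted p is under 0.05. Marco is left out of the first panel, and Marco and Olr1 of the last, since their levels there rest on few reads. Olr1 is kept in the first panel, but it passed the filter only through the stimulated libraries. It had to be higher there, so its filled point is no test result. With IFNγ + LPS changes run from -5.31 for Mrc1 to 4.02 for Cd300lf, and DGAT1i in IFNγ + LPS gave -1.89 for Marco and 0.69 for Trem2.

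Of the 13 tested bridging molecules and opsonins, 2 rose and 6 fell with DGAT1i in IFNγ + LPS (median log2 fold change -0.14). Beside this count and those of the lists in the next paragraphs, 29.8% of all genes tested passed the test, 13.5% higher and 16.3% lower. Thbs1 went from 353.3, 366.5 and 463.3 CPM to 138.7, 175 and 196.6 CPM (log2 fold change -1.22, SE 0.14, adjusted p = 0.000152). C1qa, C1qb and C1qc fell by 0.54, 0.36 and 0.59 on the log2 scale (SE 0.08, 0.05 and 0.05). Pros1 was the largest increase, from 23.8, 19.6 and 19.7 CPM to 35.4, 28.6 and 28.7 CPM (0.57, SE 0.12, adjusted p = 0.000257). Gas6 was at 25.1 ± 4.8 and 23.4 ± 3.7 CPM and did not pass the test (-0.12, adjusted p = 0.464), and neither did Apoe (0.02, adjusted p = 0.806).

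In the list of TREM and CD300 signalling, 4 of 13 tested genes fell and 0 rose by edgeR (median -0.11). At an unadjusted p under 0.05, 1 rose, Hcst, and 0 rose by DESeq2. The share called, 30.8%, was near the 29.8% of all genes. The largest decrease was in Plcg2, the phospholipase downstream of SYK (-0.64, SE 0.06, adjusted p = 1.77e-12), and Ptpn6 was at -0.54 (SE 0.05). Among the 8 brakes and sheddases tested other than Siglece, 3 fell and 0 rose by edgeR (0 also at an unadjusted p under 0.05 and by DESeq2; median -0.05), with Siglec1, a sialic acid receptor, at -1.07 (SE 0.06), Sirpa at -0.44 (SE 0.05), Adam17 at -0.20 (SE 0.05) and Adam10 at 0.05 (adjusted p = 0.623). Siglece, an inhibitory sialic acid receptor that passed the filter only through the libraries of IFNγ + LPS, had 83 reads there and 15 with the inhibitor, a ratio of 4.93 (counting interval 2.82 to 9.20). Of the 14 other scavenger receptors tested besides Ssc5d, which would not have passed the filter without the libraries with the inhibitor, 6 rose and 2 fell (median -0.03). Lrp8 rose by 1.30 (SE 0.14), Scarf1, a receptor of acetylated lipoprotein, by 0.72 (SE 0.09), Cd68, a macrophage scavenger receptor of the late endosome, by 0.48 (SE 0.05) and Cd36 by 0.32 (SE 0.07), and Clec7a, the β-glucan receptor dectin-1, fell by 0.54 (SE 0.08).

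Of the 12 other apoptotic cell receptors tested, 3 rose and 2 fell (median 0.07). The integrin subunits Itgb3 and Itgb5 rose by 0.82 (SE 0.17) and 0.44 (SE 0.10), and Havcr2, or TIM-3, fell by 0.51 (SE 0.12). Cd300a, Cd300lb and Cd300ld, like Cd300lf, did not pass the test, with log2 fold changes of 0.02, 0.02 and -0.09 (adjusted p = 0.867, 0.913 and 0.421). In the engulfment machinery, 3 of the 18 tested other than Bcar1 rose and 5 fell (median -0.04). Bcar1, which passed the filter only through the libraries with the inhibitor, had 31 reads in IFNγ + LPS and 60 in IFNγ + LPS + DGAT1i, a ratio of 2.17 (counting interval 1.39 to 3.47). Rac2 was the largest decrease at -0.76 (SE 0.05).

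Of the 13 nuclear receptors and MAF factors tested, 3 rose and 3 fell (median 0.01). Nr1h3 was at 149.3, 123 and 124.8 CPM in IFNγ + LPS and at 58.9, 56.1 and 47.9 CPM in IFNγ + LPS + DGAT1i (log2 fold change -1.28, SE 0.12, adjusted p = 1.06e-06). Maf fell by 0.64 (SE 0.06) and Pparg by 0.78 (SE 0.20), and Tfec rose by 1.06 (SE 0.22). Of the 8 liver X receptor targets, 3 rose and 2 fell (median 0.07): the desaturase Scd2 rose by 1.31 (SE 0.09) and the cholesterol exporter Abca1 by 0.21 (SE 0.06), and Abcg1 fell by 0.31 (SE 0.06). The call of Abca1 was lost without replicate 2 of IFNγ + LPS + DGAT1i (0.16, adjusted p = 0.0826).

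The summed level of the neutrophil markers was higher in the stimulated libraries with the inhibitor, at 64.5 to 82.4 CPM against 16.8 to 27.4 CPM. This was through Ngp, Ltf, S100a8 and S100a9. Mmp8 went the other way without passing the test, at a mean of 2.27 CPM without and 1.57 CPM with the inhibitor. Ly6g and Retnlg were at 0 in every library. The 7 dendritic cell markers summed to 3.55 to 4.44 CPM with the inhibitor and 12.4 to 17.5 CPM without it, with Clec9a and Xcr1 lower. The 6 endothelial cell markers summed to 5.76 to 10.5 CPM with the inhibitor and 13.5 to 17.6 CPM without it, with Kdr lower. Of the 8 macrophage markers, Cd68 was higher and Adgre1, Fcgr1 and Itgam lower, and the part of these lists in the results above was not tested.

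In resting macrophages, DGAT1i changed 4 of the 8 receptor transcripts other than Marco and Olr1, which had few reads in both groups, 2 higher and 2 lower, where 24.4% of all genes tested changed, 11% higher and 13.4% lower. Msr1 and Mertk rose, and Mrc1 and Scarb1 fell. The median log2 fold change was -0.09 over these 8 and 0.004 over all genes, and the median size of the change 0.32 against 0.17. With scaling by library totals alone, the split of all genes called was 885 higher and 2092 lower instead of 1298 and 1571. Of the macrophage markers, Cd68 and Lyz2 were higher and Adgre1 and Cd14 lower with the inhibitor, and the 6 B cell markers summed to 0.53 to 1.85 CPM against 2.03 to 2.66 CPM in M0, with Cd79b lower. The part of the markers in these results was not tested.

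Msr1 was at 337.4, 359.3 and 374.7 CPM in M0 and at 533.2, 573.8 and 528.9 CPM in M0 + DGAT1i, with all libraries of the second group above all of the first. The log2 fold change was 0.61 (SE 0.05, adjusted p = 3.24e-14). Mertk went from 78.5, 65.4 and 70.3 CPM to 113.2, 106.8 and 99.8 CPM, a log2 fold change of 0.58 (SE 0.08, adjusted p = 1.97e-07). Mrc1 went from 1388, 1691 and 1419 CPM to 1167, 1156 and 1090 CPM, again without overlap, and its log2 fold change was -0.40 (SE 0.08, adjusted p = 0.000725). Scarb1 went from 70.6, 78.8 and 74.2 CPM to 58.7, 55.2 and 59.1 CPM, a log2 fold change of -0.37 (SE 0.07, adjusted p = 7.67e-05).

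Stab1 was at 2430, 2567 and 2407 CPM in M0 and at 2368, 2285 and 2234 CPM with the inhibitor, a log2 fold change of -0.10 with a 95% interval of -0.21 to -0.0019 that did not pass the test after adjustment (adjusted p = 0.138). Trem2 was at 815.2, 769.1 and 817.9 CPM and at 755.4, 745 and 764.2 CPM, with a log2 fold change of -0.08 and an interval of -0.18 to 0.01 (adjusted p = 0.225). Both passed it with scaling by library totals alone (adjusted p = 0.0146 and 0.027, the lowest over their alternatives, against highest values of 0.398 and 0.452). Axl was at 42.4 ± 4.4 and 44.9 ± 5.5 CPM (SD, n = 3; log2 fold change 0.09, adjusted p = 0.503), and Cd300lf at 6.17 ± 1.66 and 5.10 ± 0.45 CPM (-0.26, adjusted p = 0.359). For both the groups overlapped.

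Marco had 3, 2 and 10 reads with the inhibitor against 0, 0 and 1 in M0. The ratio of the summed levels was 14.6, with a counting interval of 2.25 to 615, but edgeR's test over libraries did not call it (adjusted p = 0.573), while DESeq2 did (adjusted p = 0.0339), and its alternatives ran from 0.0257 to 0.791. These levels of 0.05 and 0.67 CPM are small beside the 129.2 CPM of IFNγ + LPS. Olr1 had 2, 2 and 0 reads in M0 and 1, 0 and 1 with the inhibitor, a ratio of 2.05 in favour of M0 with a counting interval of 0.29 to 22.7, and no difference was detectable.

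Of 15 other scavenger receptors tested, 4 rose and 1 fell (median 0.04). Beside this count and those of the lists below, 24.4% of all genes tested changed with DGAT1i in M0, 11% higher and 13.4% lower. Cd36 went from 2217, 2175 and 2499 CPM to 3276, 3384 and 3165 CPM (log2 fold change 0.51, SE 0.06, adjusted p = 2.15e-07), and Clec7a fell by 0.53 (SE 0.08). Of 12 other apoptotic cell receptors, 4 rose and 2 fell (median 0.05): Itgb3 rose by 0.70 (SE 0.11), Cd300a by 0.49 (SE 0.06) and Cd300ld by 0.30 (SE 0.05), Cd14 fell by 0.78 (SE 0.06), and Cd300lb was at 0.03 (adjusted p = 0.793). Of 13 bridging molecules and opsonins, 2 rose and 3 fell (median 0.11), with the galectin Lgals3 at 0.57 (SE 0.05) and Pros1 at -0.31 (SE 0.08, adjusted p = 0.00425, and 0.101 without replicate 2 of M0 + DGAT1i). Gas6 did not pass the test (0.11, adjusted p = 0.14).

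Beside the counts of the lists that follow, 24.4% of all genes tested passed the test in resting macrophages, 11% higher and 13.4% lower. Of 19 genes of the engulfment machinery tested, 2 rose and 6 fell (median -0.06), from Rab7 at 0.23 (SE 0.05) to Dock2 at -0.40 (SE 0.05). Among 13 genes of TREM and CD300 signalling, 2 rose and 3 fell (median 0.06), with Ms4a6d at 0.85 (SE 0.06) and Ptpn6 at -0.29 (SE 0.05). Among 9 brakes and sheddases, 1 rose and 4 fell (median -0.03), with Pirb at 0.29 (SE 0.06) and Adam17 at -0.25 (SE 0.05), Adam10 at -0.03 (adjusted p = 0.74), and Socs3 at -1.56 (SE 0.55, adjusted p = 0.0303), a call lost with DESeq2 (0.051) and without replicate 1 or 3 of M0 or replicate 1 of M0 + DGAT1i (0.126 to 0.24). Among 13 nuclear receptors and MAF factors, Rxra rose by 0.53 (SE 0.07) and Pparg was at -0.24 (SE 0.09, adjusted p = 0.0473), 1 higher and 1 lower against 1 and 3 with scaling by library totals alone. The call of Pparg was lost with no filter (adjusted p = 0.0766), with DESeq2 (0.124), and without replicate 2 or 3 of M0, replicate 3 of IFNγ + LPS or any replicate of M0 + DGAT1i (0.0518 to 0.202). Among 8 liver X receptor targets 3 rose and 2 fell (median 0.16), from Mylip at 0.75 (SE 0.08) to Abca1 at -0.37 (SE 0.06).

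The response to DGAT1i differed between the activation states for 6 of the 8 receptors other than Marco and Olr1, by a test of the difference between the change in IFNγ + LPS and that in M0, where 18.5% of all genes tested passed it, 8.66% higher and 9.8% lower. With scaling by library totals alone, the split of all genes called was 1229 higher and 882 lower instead of 1019 and 1152. The difference was positive for Trem2, Scarb1 and Mrc1 and negative for Msr1, Stab1 and Mertk. Among the markers it was positive for Ngp, Ltf, S100a8 and S100a9, which are 4 of the 5 neutrophil markers tested, and for Cd14, and negative for Kdr of the endothelial list and for the macrophage markers Fcgr1, Itgam and Lyz2, and their part in these results was not tested. For Msr1 the difference was -0.87 (SE 0.07, adjusted p = 2.54e-13), with a rise of 0.61 in M0 and a fall of 0.26 in IFNγ + LPS. For Scarb1 it was 0.74 (SE 0.14, adjusted p = 4.28e-05), with a fall of 0.37 in M0 and a rise of 0.37 in IFNγ + LPS. For Trem2 it was 0.77 (SE 0.08, adjusted p = 2.71e-11) and for Stab1 -0.59 (SE 0.08, adjusted p = 2.32e-08), both with little change in M0.

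For Mrc1 the difference was 0.64 (SE 0.15, adjusted p = 0.00485), with a fall in M0 and no change past the threshold in IFNγ + LPS. For Mertk it was -0.48 (SE 0.10, adjusted p = 0.000489), with a rise in M0 and none past the threshold in IFNγ + LPS. These 6 differences kept their direction and passed the test when each library was left out in turn. For Axl the difference was 0.15 with a 95% interval of -0.07 to 0.37 (adjusted p = 0.364), and for Cd300lf 0.27 with an interval of -0.15 to 0.69 (adjusted p = 0.401). Marco, with its few resting reads, was at -5.28 by edgeR (adjusted p = 0.352) and at -5.64 by DESeq2 (adjusted p = 0.00161), with 0.00053 to 0.635 over its alternatives, and Olr1 was at 0.80 (adjusted p = 0.696). Nr1h3 (-1.64, SE 0.21, adjusted p = 4.49e-05) and Thbs1 (-1.56, SE 0.28, adjusted p = 0.00495) had a negative and Pros1 (0.87, SE 0.15, adjusted p = 1.22e-05) a positive difference.

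**Figure D5:**
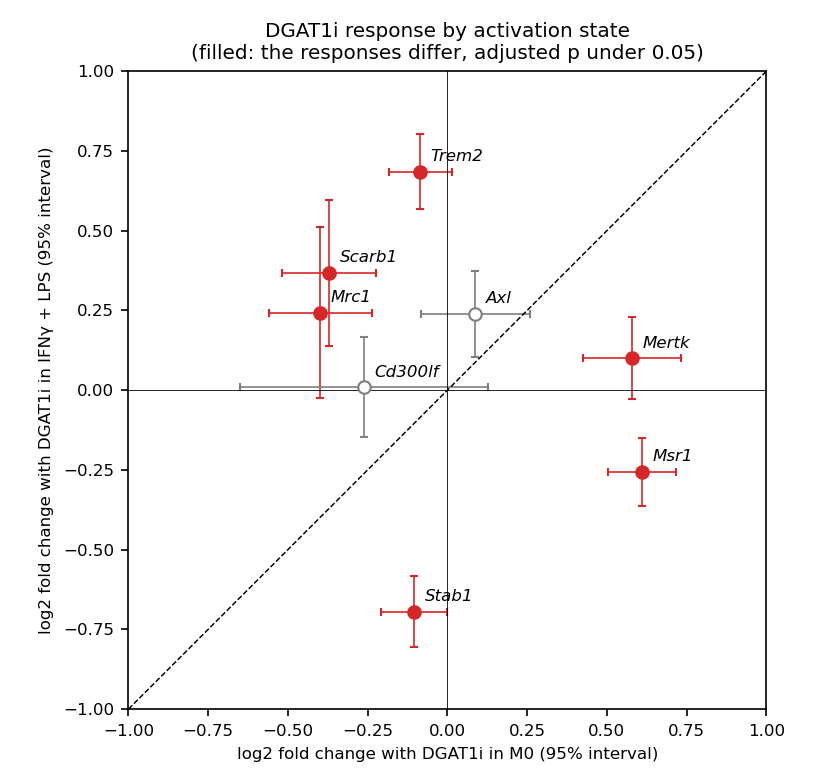
Log2 fold change with DGAT1i in M0 (horizontal axis) against that in IFNγ + LPS (vertical axis) for 8 receptor transcripts, with 95% intervals as bars, equal responses on the dashed line and filled points where the 2 responses differ (adjusted p under 0.05). Marco and Olr1 are left out for their few reads in M0, Msr1 lies at 0.61 and -0.26, and Scarb1 at -0.37 and 0.37.

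IFNγ + LPS with the inhibitor present in both arms changed 7 of the 8 receptors other than Marco and Olr1, 3 higher and 4 lower, where 70.6% of all genes passed the test, 35.3% in each direction. All 6 libraries of this comparison also enter the difference of the DGAT1i responses. Of the markers of other cells, Ngp, S100a8 and S100a9 (neutrophil), Clec9a and Xcr1 (dendritic cell), Lck (T cell) and Kdr (endothelial) were higher and Mmp8 (neutrophil), Cd28 (T cell), Cd79b (B cell) and Stab2 (endothelial) lower with stimulation, and their part in this result was not tested. The log2 fold change was -4.67 (SE 0.10) for Mrc1, -3.04 (SE 0.06) for Stab1, -1.94 (SE 0.05) for Trem2 and -1.04 (SE 0.09) for Scarb1, and 2.21 (SE 0.07) for Mertk, 2.01 (SE 0.07) for Axl and 4.29 (SE 0.12) for Cd300lf. Marco was at 484 reads against 15, a ratio of 51.3 (counting interval 30.8 to 92.4), and Olr1 at 25 reads against 2, a ratio of 19.9 (4.96 to 173.1). Msr1 did not pass the test (-0.09, 95% interval -0.20 to 0.01, adjusted p = 0.112), but it did with scaling by library totals alone (-0.51, adjusted p = 9.45e-13, the lowest over its alternatives, against 0.428 as the highest). With scaling by library totals alone the median of all genes was -0.43 and the split of all genes called was 2333 higher and 6799 lower instead of 4152 and 4151.

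The genes whose profile over the 12 libraries lay nearest to each receptor were named by the smallest root mean square difference of centred log2 CPM, with no test. For Mrc1 they were Itga6 (0.26) and Dab2 (0.29), against a spread of Mrc1 itself of 2.50, and for Stab1 Atp8b4 (0.14) and Tbc1d4 (0.18), against 1.39. For Trem2 they were Gamt (0.09) and Gsn (0.12), against 1.19, and for Scarb1 Paqr4 and Maged2 (both 0.12), against 0.73. For Mertk they were Grina (0.12) and Ric1 (0.13), against 1.24, and for Axl Atf3 and Stoml1 (both 0.10), against 0.98. For Cd300lf they were Helz2 and Slfn8 (both 0.17), against 2.06, and for Msr1 Pde4dip (0.08) and Uckl1 (0.11), against 0.29. For Marco, Gbp10 and Rasgrp1 were no nearer than 0.75, against 3.65, and for Olr1, A930007I19Rik and Gm11131 lay at 0.29 and 0.31, against 1.30. None of the nearest genes was itself one of the 10 receptors.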

How the data were processed

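RNA was sequenced from 12 libraries of bone marrow-derived macrophages in 4 groups of 3, taken from the deposited sample labels. The authors deposited raw read counts per gene for 47937 Ensembl genes, without normalization. Of these, 25746 had 0 reads in all libraries and 713 had no symbol. The submitters' processing notes name GRCm38 and DESeq2, while the sources used here name neither aligner nor counting tool. The paper and the labels name different library kits, so that strandedness is open.

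Counts were analysed with edgeR 4.0.16 in R 4.3.3: filterByExpr (minimum count 10), TMM scaling, 1 mean per group over all 12 libraries, glmQLFit (robust) and the quasi-likelihood test, with Benjamini-Hochberg adjustment over 11760 genes and a threshold of 0.05. Intervals are 95%. Where a group had few reads, ratios carry exact counting intervals. Symbols, exon lengths and gene positions came from GENCODE M21 on GRCm38, and a search with BLAST 2.17.0 found no transcript of another gene with 95% identity over 20% of a receptor transcript.

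The receptors and the 8 lists around them (1 list gene, Lilrb4a, was not found) were chosen with earlier results of these data known. Named genes were the 10 receptors, the 2 nearest profiles for each (log2 of CPM plus 0.25), the called list genes with the largest increase and decrease per comparison, and ligands, adaptors, sheddases and relatives of a receptor in the lists. List genes that would not have reached the filter's 1.64 CPM in 3 libraries without 1 side of a comparison were left out of its counts. Some further list genes (Cd68, Lrp1, Cd47, Maf, Siglec1, Scarf1, Abcg1 and the C1q genes, and some values of genes named elsewhere) were chosen after their values were seen. Alternatives were DESeq2 1.42.0, RLE factors, library totals alone, no filter, a mean CPM of at least 1, only the 6 libraries compared, a replicate block and leaving out each library. A further list gene is not reported here.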

Additional observations from a re-analysis of the deposited data

Results flagged for a closer look

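For 9 genes the response to DGAT1i differed between resting and stimulated macrophages by the interaction term of the edgeR fit. As the change in IFNγ + LPS minus that in M0, on the log2 scale, the difference was -0.87 for Msr1, 0.64 for Mrc1, 0.74 for Scarb1, -0.59 for Stab1, -0.48 for Mertk and 0.77 for Trem2. For the partners it was -1.64 for Nr1h3, -1.56 for Thbs1 and 0.87 for Pros1. The 3 partners were chosen after their values were seen. Groups of 3 libraries were too small for a check of single libraries that stand apart.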

How the results depend on the processing

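The counts of all genes and of receptors that changed stayed within 1.5 times the reported value under every alternative run, and the difference of the responses could not be fitted to 6 libraries. Of 930 receptor values under alternatives, 908 kept their direction and their side of the threshold, 4 lost the call, 12 gained one and 6 changed sign without a call. Olr1 was not tested with a mean CPM of at least 1 or with only the 6 libraries compared, nor was Marco in the latter fit for DGAT1i in M0. Of the 8 receptors other than Marco and Olr1, leaving out 1 library at a time gave 8 called for IFNγ + LPS (8256 to 8778 of all genes), 4 to 6 for DGAT1i in IFNγ + LPS (2916 to 3567), 4 for DGAT1i in M0 (2270 to 3017), 7 to 8 for IFNγ + LPS with DGAT1i in both arms (7952 to 8378) and 6 for the difference (1881 to 2160). Mrc1 was called for DGAT1i in IFNγ + LPS without replicate 2 of M0 and without replicate 1 of IFNγ + LPS + DGAT1i, and Msr1 for stimulation under DGAT1i without the latter and with no filter (adjusted p = 0.0264) and, at -0.51, with library totals alone (adjusted p = 9.45e-13).

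The sign changed, with no call on either side, for Cd300lf with DGAT1i in IFNγ + LPS (-0.029 with no filter, -0.059 to 0.073 with 1 library left out), for Axl with DGAT1i in M0 (-0.020 to 0.14 with 1 library left out) and for Olr1 with DGAT1i in IFNγ + LPS (-0.51 to 0.11). Among the partners, the change with DGAT1i in IFNγ + LPS ran, with 1 library left out, from -0.035 to 0.13 for Tyrobp, from -0.044 to 0.071 for Apoe, from -0.031 to 0.042 for Cd300a and from -0.056 to 0.14 for Cd300lb, and with no filter it was -0.014 for Apoe, -0.017 for Cd300a and -0.022 for Cd300lb, none of them called. With IFNγ + LPS, C1qb ran from -0.032 to 0.046 with 1 library left out and was called at -0.48 with library totals alone. With library totals alone, Adam17 was at -0.11 with IFNγ + LPS (adjusted p = 0.0659, against 0.36 and a call), and Cd300lb at -0.032 with DGAT1i in M0. Adam10 with DGAT1i in M0 ran from -0.070 to 0.019 with 1 library left out. The cause of these changes was not tested, other than the shift of all genes by library totals given above.

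The labels do not say whether replicate numbers pair the libraries, and the values do not settle it. The deviations of same-numbered libraries correlated weakly, at -0.02 to 0.07 over 18 pairs, none above 0.1. Their median was 0.01, against -0.004 for pairs with different numbers. Of 12 libraries, 9 correlated best with their own number, a hint from the data and not the design. With the replicate block, 7 receptors were called for DGAT1i in IFNγ + LPS (Mrc1 added, 0.24, adjusted p = 0.0297), 5 for DGAT1i in M0 (Marco added) and 7 for the difference (Marco added), and all genes called were 8635, 3568, 2959, 8310 and 2268 over the 5 comparisons, against 8615, 3508, 2869, 8303 and 2171. At 4.28 to 7.58 reads per CPM, depth limits Olr1 in every group and Marco without stimulation.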
